A study of Mus musculus with 8 samples.

Results

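The genes described here are 43 genes of macrophages and inflammation in epididymal white adipose tissue, the visceral fat pad beside the epididymis. They were chosen as a list of names, with earlier results of these data known. Each was read from the array row whose annotation gives exactly 1 gene symbol. Of the 43, 42 had such a row, each of them a single one, among 19310 genes read in the same way. Spp1 was not analysed here. The tissue came from male C57BL/6 mice aged 12 to 15 weeks on standard chow, with 12 h of light and 12 h of darkness a day. All were sampled 10 h after lights on (Zeitgeber time 10), the hour of the Rev-erb alpha protein peak per the labels. Whole-transcript Affymetrix arrays measured 4 wild-type samples and 4 samples labelled Rev-erb alpha KO, a knockout of a clock repressor that is also a nuclear receptor. The labels do not say how the allele was made or whether each sample was a separate mouse, so the p-values rest on the spread between samples, which may be technical.

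Macrophages are phagocytes that live among adipocytes in every fat depot, where they take up dead cells, lipid and microbial products. They carry pattern receptors that start inflammatory signalling, and they present peptides to T cells on class II molecules of the major histocompatibility complex. In expanding fat a lipid-associated state is known, marked by the receptor TREM2 and by lysosomal genes. Rev-erb alpha is itself expressed in macrophages and is known as a repressor of several inflammatory genes in them. The list falls into 22 genes of macrophage identity, 5 of antigen presentation, 6 lipid-associated genes and 10 of sensing and cytokines.

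The 8 arrays had medians of 5.90 to 5.95 log2, and arrays of a group correlated at 0.993 to 0.996 over all rows, across genes. The row of the targeted gene Nr1d1 read 9.40 ± 0.33 in wild type and 9.14 ± 0.35 in the knockout-labelled arrays (SD, n = 4 each; log2 fold change −0.26, limma adjusted p = 0.479). In knockout-labelled arrays 1 to 4 the row read 9.56, 9.28, 8.90 and 8.80, where wild type ranged from 9.11 to 9.83. Arrays 1 and 2 thus lay within the wild-type range and arrays 3 and 4 below it. Fits with either pair alone are given below. Where that row lies relative to the deleted part is not given in the sources used here, so it checks nothing, and these 4 arrays are named by their label, as knockout-labelled. Arntl, a clock gene that Rev-erb alpha represses, was 3.61-fold higher in them (limma adjusted p = 3.2e-05), with no overlap of the groups. The defining adipocyte genes Adipoq and Fabp4 were measured at close levels in both groups. Adipoq, the adiponectin gene, read 12.20 ± 0.05 and 12.16 ± 0.09, and Fabp4, a fatty acid binding protein gene, read 12.48 ± 0.10 and 12.41 ± 0.11. Plin1, a lipid droplet coat gene, read 11.81 ± 0.04 and 11.61 ± 0.07 (log2 fold change −0.20, limma adjusted p = 0.0529). Its groups did not overlap, with the knockout-labelled arrays lower.

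Few of these genes differed between the groups. A gene was called changed at a limma p under 0.05 after Benjamini-Hochberg adjustment over all rows with 1 symbol. The co-receptor gene Cd14 fell, and the lectin gene Lgals3 and the cyclooxygenase gene Ptgs2 rose. These 3 of 42 stand beside 7.5% of all 19310 genes called in either direction, 3.89% higher and 3.61% lower, so the share of members called, 7.14%, was near the background. An unadjusted p under 0.05 was reached by 4 of the 42. The groups did not overlap in 4 members, Cd14 and Aif1 lower and Lgals3 and Ptgs2 higher, beside 15.5% of all genes (7.29% higher, 8.26% lower). The median log2 fold change over the 42 was 0.03, beside −0.01 over all genes tested. In bulk tissue, fewer cells of a type and less RNA per cell cannot be told apart.

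**Figure D1:**
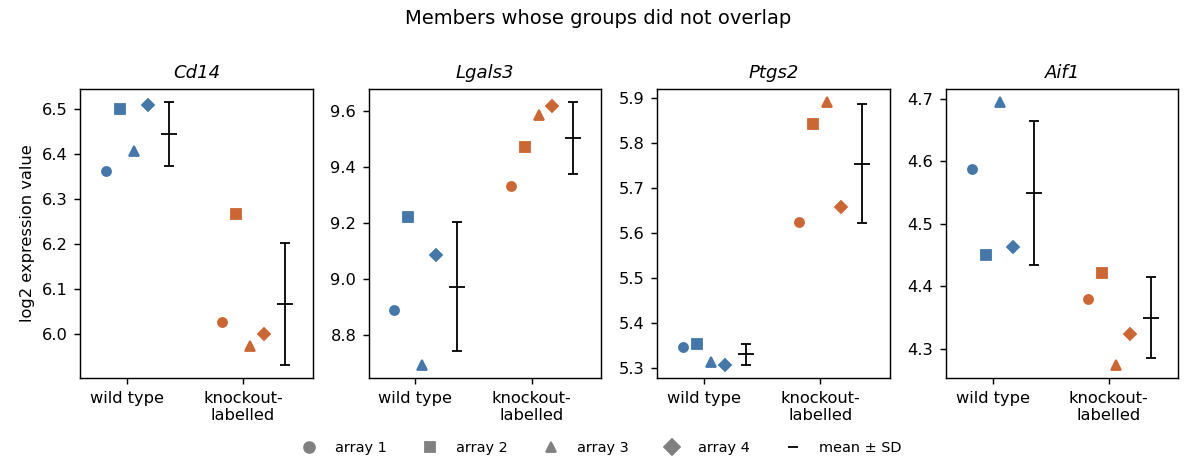
Log2 expression values of the 4 members whose groups did not overlap, 1 point per array, with the symbol marking the array number and the bar the mean ± SD (n = 4); each panel has its own vertical axis. Cd14 fell by 0.38, Lgals3 rose by 0.53 and Ptgs2 by 0.42, and Aif1, at −0.20, did not pass the test.

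Among the identity genes, the one that passed was Cd14, the co-receptor that hands bacterial lipopolysaccharide to Toll-like receptor complexes. It read 6.36, 6.50, 6.41 and 6.51 log2 in wild-type arrays 1 to 4 and 6.03, 6.27, 5.97 and 6.00 in knockout-labelled arrays 1 to 4. Every knockout-labelled array lay below every wild-type array, by a margin of 0.10 between the nearest. The log2 fold change came to −0.38 (SE 0.073, 95% interval −0.54 to −0.22, limma adjusted p = 0.0116), or 0.769 of the wild-type level. When only knockout-labelled arrays 1 and 2 were kept it was −0.30 and did not pass (limma adjusted p = 0.112). With only knockout-labelled arrays 3 and 4 it passed.

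Aif1, which encodes the actin-binding protein IBA1 of macrophages and microglia, also parted the groups without passing. It read 4.59, 4.45, 4.69 and 4.46 in wild type and 4.38, 4.42, 4.27 and 4.32 in the knockout-labelled arrays. The nearest arrays of the 2 groups were 0.03 apart, and the log2 fold change came to −0.20 (SE 0.067, limma adjusted p = 0.105). Of the identity genes Aif1, Clec4d and Marco were in the dimmest 33.3% of genes, where a row may read little but background.

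The other 20 identity genes had log2 fold changes between −0.09 and 0.26, with limma adjusted p of 0.396 or more. Lyz2, the macrophage lysozyme gene, read 10.85, 10.65, 10.28 and 10.63 in wild type and 10.69, 10.87, 10.59 and 10.71 in the knockout-labelled arrays. Its groups overlapped, and the log2 fold change came to 0.12 (SE 0.109, 95% interval −0.13 to 0.36). Values of the surface and growth factor receptor genes lay close to 0 or slightly above. Ptprc, the pan-leukocyte phosphatase CD45, was at 0.04 (−0.27 to 0.35), Csf1r, the receptor on which macrophage survival depends, at 0.09 (−0.14 to 0.31), and Adgre1, which encodes F4/80, at 0.23 (−0.09 to 0.55). The largest value above 0 was that of Cd68, a lysosomal glycoprotein gene, at 0.26 (−0.10 to 0.62). All 4 intervals hold 0, and the upper bound for Cd68 is a 1.54-fold difference.

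The 3 chains of complement C1q, which bind antibody complexes and dying cells, are encoded side by side on chromosome 4. All 3 were highest in wild-type array 1 and lowest in array 3 of wild type, and highest in array 2 and lowest in array 3 of the knockout-labelled group. Log2 fold change of C1qa was 0.03, that of C1qb 0.10 and that of C1qc 0.18 (limma adjusted p = 0.92, 0.69 and 0.523). Signalling partners of immune receptors gave similar values. The adaptor gene Tyrobp, which encodes DAP12, was at −0.00 (95% interval −0.33 to 0.33), the Fc receptor gamma chain gene Fcer1g at 0.14, and the high-affinity Fc receptor gene Fcgr1 at −0.07. The cathepsin gene Ctss and the perforin-like gene Mpeg1 were both at 0.23. Scavenger and resident macrophage genes spanned a narrow range. Msr1 was at 0.03, Marco at 0.05, Folr2, a folate receptor gene of resident macrophages, at 0.04, Timd4, a receptor gene for phosphatidylserine, at 0.07 and Siglec1, a sialic acid lectin gene, at −0.01. The lectin gene Clec4d, at −0.09, and the signalling receptor gene Cd84, at 0.04, complete the 22.

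**Figure D2:**
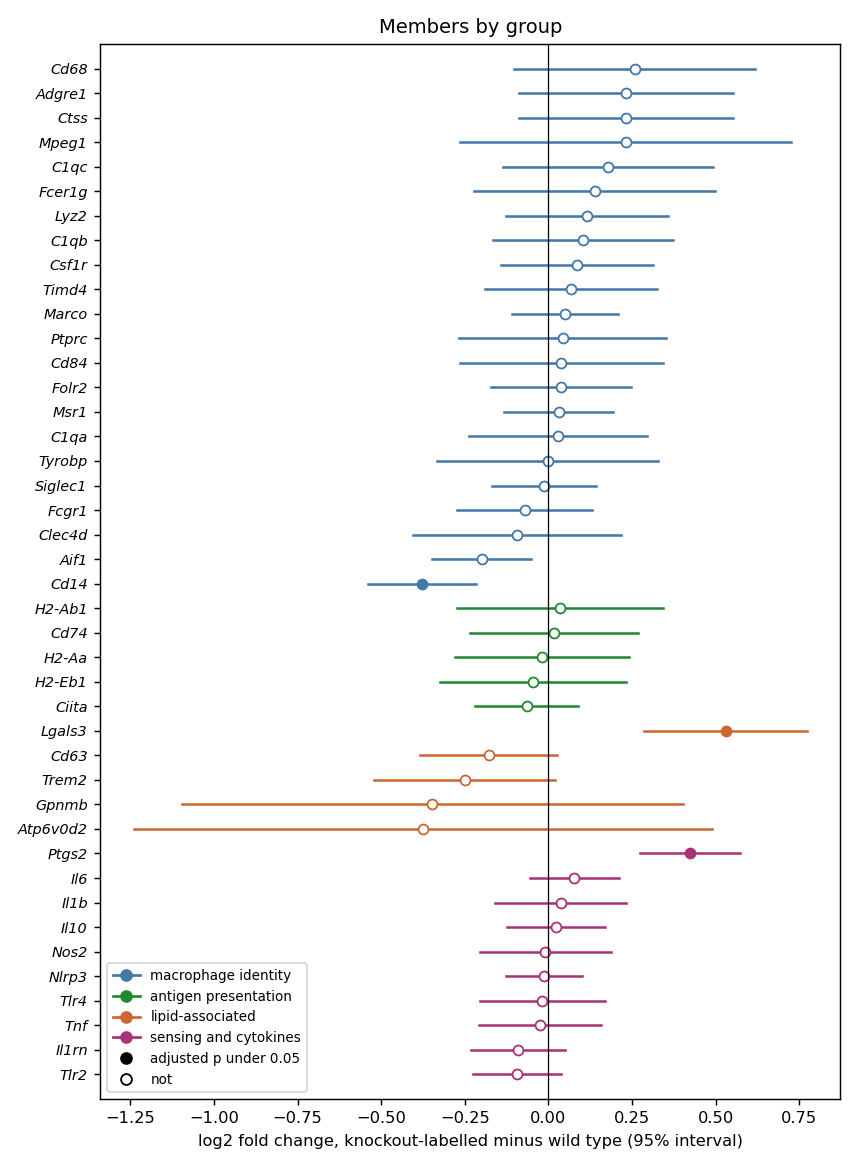
Log2 fold change of each of the 42 measured members with its 95% interval from the moderated fit, grouped by role and coloured by group; filled points passed an adjusted p under 0.05. The 3 filled points are Cd14, Lgals3 and Ptgs2, and the widest intervals are those of Gpnmb and Atp6v0d2.

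Outside Cd14 and Aif1 the groups overlapped in all identity genes, and the same arrays were lowest or highest for most of the 22. In wild type, array 3 was the lowest in 17 of the 22, while it was the lowest wild-type array in 25.6% of all genes tested. In the knockout-labelled group, array 2 was the highest in 20 of the 22, while it was the highest in 22.1% of all genes. Averaged over the 22 genes, the difference from the wild-type mean was 0.12, 0.14, −0.28 and 0.02 log2 in wild-type arrays 1 to 4. It was −0.03, 0.26, −0.05 and 0.03 in knockout-labelled arrays 1 to 4. Wild-type array 3 is thus low and knockout-labelled array 2 high, and the other 6 arrays lie between −0.05 and 0.14. Mpeg1, chosen as an example after its values were seen, read 6.35, 6.55, 5.69 and 6.80 in wild type and 6.45, 7.05, 6.31 and 6.50 in the knockout-labelled arrays. In 13 of the 22 genes the SD over the wild-type arrays was larger than in 95% of all genes. Markers of other cells are given beside this. All 8 measured markers of adipose progenitors were lowest of wild type in array 3, with a mean difference from the wild-type mean of −0.26 there. In knockout-labelled array 2 that mean was 0.19, as in array 1 and below arrays 3 and 4, and 4 of the 8 were lowest and 2 highest there. Over the 9 adipocyte markers that mean difference was 0.06 in wild-type array 3 and 0.05 in knockout-labelled array 2. In the same arrays it was −0.10 and 0.07 over T and NK cell markers and −0.13 and 0.13 over B cell markers. It was −0.08 and −0.09 over dendritic cell, 0.03 and 0.04 over neutrophil and −0.06 and −0.01 over mast cell and eosinophil markers. Over endothelial markers it was 0.04 and 0.18, and over mesothelial markers −0.05 and 0.02. The part of cell makeup in the pattern was not tested.

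The direction of the small identity shift rests on those arrays. With all arrays 16 of the 22 log2 fold changes were above 0 and the median was 0.05. Without wild-type array 3, 10 were above 0 and the median was −0.01. Without knockout-labelled array 2, 11 were above 0 and the median was again −0.01. With only knockout-labelled arrays 1 and 2, 18 were above 0, and with only arrays 3 and 4, 14 were. The intervals bound what the 8 arrays could miss. For 17 of the 22 genes the 95% interval lay within 0.5 log2 of 0, and the median distance from estimate to bound was 0.27, beside 0.15 over all genes.

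**Figure D3:**
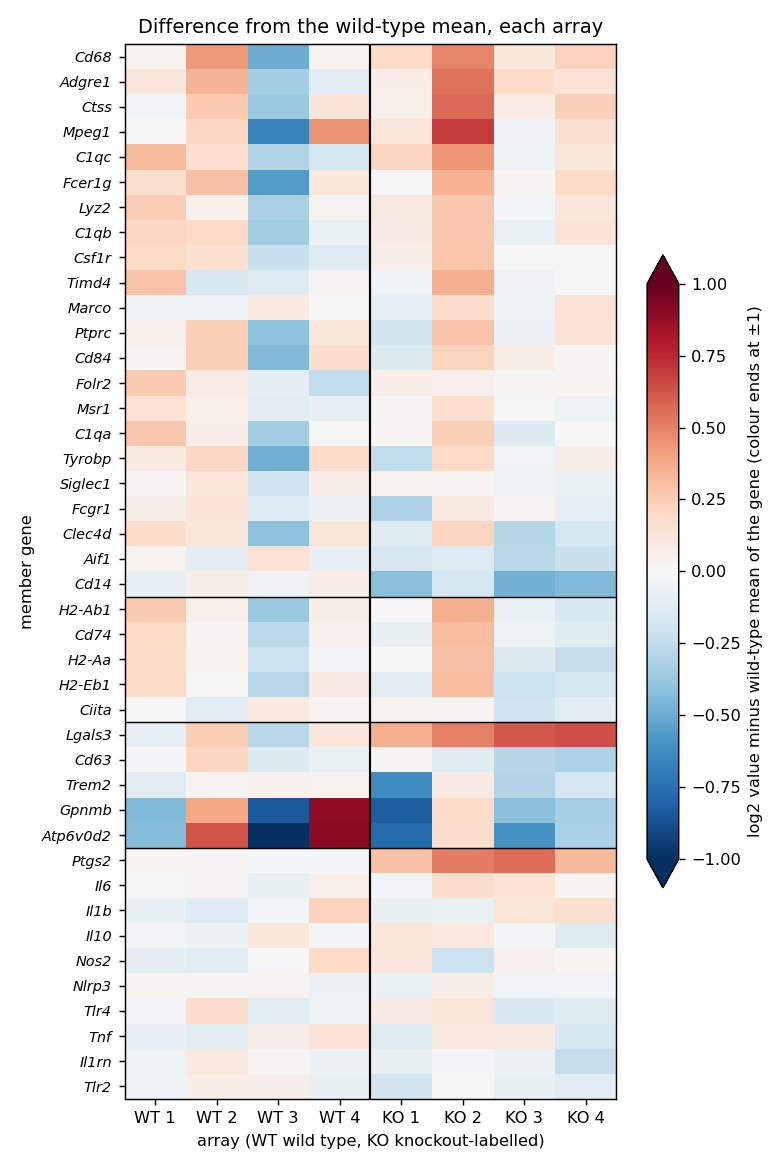
Log2 value of each member in each array minus the gene's wild-type mean, with members in rows by group and arrays in columns (WT wild type, KO knockout-labelled); the colour scale ends at ±1. Wild-type array 3 is the lowest of its group in 17 of 22 identity and 4 of 5 antigen presentation rows, and knockout-labelled array 2 the highest in 20 and 4, the Lgals3 and Ptgs2 rows are high in all 4 knockout-labelled arrays, and the Gpnmb and Atp6v0d2 rows have the strongest colours.

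Class II antigen presentation genes did not pass, and 4 of the 5 followed the array pattern of the identity genes. H2-Aa and H2-Ab1 encode the chains of the I-A molecule and H2-Eb1 the beta chain of I-E, Cd74 encodes the invariant chain that guards the groove, and Ciita encodes the coactivator that switches this set on. H2-Aa read 10.62, 10.46, 10.21 and 10.41 in wild type and 10.42, 10.72, 10.29 and 10.19 in the knockout-labelled arrays. H2-Eb1 read 9.63, 9.44, 9.16 and 9.52 in wild type and 9.33, 9.74, 9.22 and 9.27 in the knockout-labelled arrays. In both genes wild-type array 3 was the lowest of its group and knockout-labelled array 2 the highest of all 8. The same holds of Cd74 and H2-Ab1, so that 4 of the 5 genes shared it. Ciita read 5.58, 5.47, 5.68 and 5.60 against 5.62, 5.59, 5.38 and 5.48, with wild-type array 3 the highest of all 8. Log2 fold changes of the 5 lay between −0.07 and 0.03, limma adjusted p was 0.651 or more, and every 95% interval lay within 0.5 log2 of 0. The median was −0.02, and with single arrays left out it ranged from −0.0908 to 0.0508. With only knockout-labelled arrays 1 and 2, all 5 log2 fold changes were above 0, and with only arrays 3 and 4, 0 were.

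Genes of the class II chains and the invariant chain carry a shared proximal control region whose Y box is read by a CCAAT-binding factor. Of the genes that shared the array pattern, only H2-Aa and H2-Eb1 had a Y box match in their windows, so their promoters are shown. Both are the 150 bases before the annotated start in RefSeq, build GRCm38.p6, at chr17:34287824-34287973 on the minus strand and chr17:34305717-34305866 on the plus strand. Capitals mark the Y box, CTGATTGG, and in H2-Aa also the cyclic AMP response element, TGACGTCA.
H2-Aa: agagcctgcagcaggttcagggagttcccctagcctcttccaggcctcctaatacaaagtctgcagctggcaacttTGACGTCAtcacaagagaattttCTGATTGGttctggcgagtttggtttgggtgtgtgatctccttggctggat
H2-Eb1: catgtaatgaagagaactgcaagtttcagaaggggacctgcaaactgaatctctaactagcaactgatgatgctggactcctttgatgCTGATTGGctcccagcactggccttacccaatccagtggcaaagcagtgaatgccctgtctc
The Y box starts 51 bases before the start of H2-Aa and 62 before that of H2-Eb1, on the coding strand. On either strand it occurs in 4.1% of 32851 RefSeq windows of 300 bases, 250 before to 50 after a start, and in those of 4 of the 29 listed genes that have a window. The other genes with it are Il6 and Spp1. The response element occurs in 1.79% of windows.

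The lipid-associated genes held the largest rise and the largest spread. Lgals3, which encodes galectin-3, a lectin secreted by macrophages and other cells, was the member that rose. It read 8.89, 9.22, 8.69 and 9.09 in wild type and 9.33, 9.47, 9.59 and 9.62 in the knockout-labelled arrays. All 4 knockout-labelled arrays lay above all wild-type arrays, by 0.11 at the nearest. The log2 fold change came to 0.53 (SE 0.11, 95% interval 0.29 to 0.77, limma adjusted p = 0.0162), a 1.44-fold difference. The call was lost without knockout-labelled array 4 (0.49, limma adjusted p = 0.0552) and when only knockout-labelled arrays 1 and 2 were kept (0.43, limma adjusted p = 0.147). It held with only knockout-labelled arrays 3 and 4.

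The other 4 measured genes of the group had log2 fold changes below 0 that did not pass. Trem2, the lipid receptor that defines the state, read 6.43, 6.56, 6.57 and 6.57 in wild type and 5.91, 6.61, 6.24 and 6.36 in the knockout-labelled arrays. Knockout-labelled array 2 exceeded all of wild type and the others were below it, and the log2 fold change came to −0.25 (SE 0.122, limma adjusted p = 0.269). Cd63, a tetraspanin gene of late endosomes, read 9.94, 10.16, 9.81 and 9.88 against 9.95, 9.83, 9.66 and 9.63. Its groups overlapped at −0.18 (SE 0.0929, limma adjusted p = 0.3).

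Gpnmb, a glycoprotein gene of stressed lysosomes, and Atp6v0d2, a proton pump subunit gene, spread most. Gpnmb read 6.74, 7.56, 6.34 and 8.06 in wild type and 6.35, 7.36, 6.75 and 6.85 in the knockout-labelled arrays. Atp6v0d2 read 4.65, 5.70, 3.97 and 5.98 in wild type and 4.31, 5.25, 4.49 and 4.76 in the knockout-labelled arrays. In both genes wild-type arrays 2 and 4 were high, arrays 1 and 3 low, and knockout-labelled array 2 the highest of its group. The wild-type range was 1.72 log2 for Gpnmb and 2.01 for Atp6v0d2, and their wild-type SDs exceeded those of 99.8% and 99.9% of all genes. Log2 fold changes were −0.35 (95% interval −1.10 to 0.40) and −0.38 (−1.24 to 0.49), so these arrays do not bound the difference of either gene to within 1 log2 of 0. The group's median of −0.25 became −0.0741 without wild-type array 4.

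**Figure D4:**
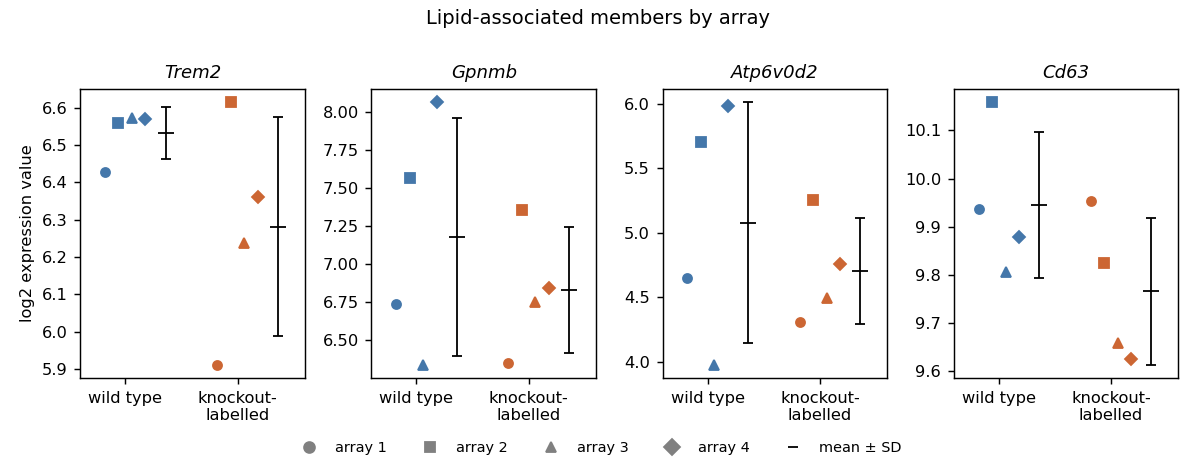
Log2 expression values of 4 lipid-associated members in each array, with the symbol marking the array number and the bar the mean ± SD (n = 4); each panel has its own vertical axis. Wild-type arrays 2 and 4 are high and arrays 1 and 3 low for Gpnmb and Atp6v0d2, whereas the Trem2 values of wild type span 0.14 log2.

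Among sensing and cytokine genes, the inducible prostaglandin synthase gene Ptgs2 (COX-2) rose. It read 5.35, 5.35, 5.31 and 5.31 in wild type and 5.63, 5.84, 5.89 and 5.66 in the knockout-labelled arrays. The groups were 0.27 apart at the nearest, and the wild-type values spanned 0.05 log2. The log2 fold change came to 0.42 (SE 0.0675, 95% interval 0.27 to 0.57, limma adjusted p = 0.00495), a 1.34-fold difference. The call held in each fit that left out 1 array, with log2 fold changes of 0.377 to 0.466, and with either pair of knockout-labelled arrays.

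The promoters of Ptgs2 and Lgals3 are shown because these were the members that rose. Both are the 150 bases before the annotated start in RefSeq, build GRCm38.p6, at chr1:150099881-150100030 and chr14:47373710-47373859, on the plus strand. Capitals mark a C/EBP element, TTGCGCAA, in Ptgs2, and none of the motifs searched lies in the Lgals3 stretch.
Ptgs2: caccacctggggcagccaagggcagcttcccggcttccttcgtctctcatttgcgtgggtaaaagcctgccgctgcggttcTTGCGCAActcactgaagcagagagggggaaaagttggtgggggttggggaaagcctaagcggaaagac
Lgals3: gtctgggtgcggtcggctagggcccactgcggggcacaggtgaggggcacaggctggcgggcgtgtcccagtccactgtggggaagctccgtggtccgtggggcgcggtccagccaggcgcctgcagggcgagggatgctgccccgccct
The stretches are 59.3% and 74.7% G and C. The C/EBP element of Ptgs2 starts 69 bases before the start and occurs in 0.183% of all windows. An E-box, CACGTG, the element read by the clock activators BMAL1 and CLOCK, begins 16 bases after the annotated start of Ptgs2. It lies outside the stretch shown and occurs in 7.15% of windows. A core that Rev-erb and ROR receptors read, ANTAGGTCA, was searched on both strands and is in the window of none of the 29 genes, beside 0.661% of all windows. Its last part alone, AGGTCA, which the longer motif contains, is in the windows of 9 of them and in 16.3% of all windows. Also searched on both strands were the PU.1 element GAGGAAGT (C1qc, Ctss and Spp1, 3.2% of windows), the NF-kB element GGANTTTCC (Il6 and Nlrp3, 1.25%) and the TATA box TATAAA (6 of the 29 genes, 13.6%). These are matches of letters in short windows and nothing else was measured at them.

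The other 9 sensing and cytokine genes had log2 fold changes between −0.09 and 0.08. Tlr2, a receptor gene for bacterial lipoproteins, read 6.14, 6.26, 6.25 and 6.12 in wild type and 6.01, 6.18, 6.12 and 6.08 in the knockout-labelled arrays. Its groups overlapped (log2 fold change −0.09, SE 0.0591, limma adjusted p = 0.404). Tlr4, the lipopolysaccharide receptor gene, read 7.14, 7.34, 7.05 and 7.11 against 7.24, 7.28, 7.01 and 7.03, with overlap and a log2 fold change of −0.02 (95% interval −0.20 to 0.17). The inflammasome sensor gene Nlrp3, a known Rev-erb alpha target in macrophages, was at −0.01 (−0.13 to 0.10). Il1b, the cytokine gene that NLRP3 activity matures, was at 0.04 and its antagonist gene Il1rn at −0.09. Tnf was at −0.03, Il6 at 0.08, the anti-inflammatory cytokine gene Il10 at 0.02 and the inducible nitric oxide synthase gene Nos2 at −0.01. Limma adjusted p of these 9 genes was 0.404 or more, and all 9 intervals lay within 0.5 log2 of 0. Of the 10 genes, 5 were in the dimmest 33.3% of genes, and Il6 read 2.69 to 2.94 where the lowest value of the table is 2.09. Detection was not scored here, and a dim row may read little but background and its narrow interval says little about the gene.

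Around these members, genes of lipopolysaccharide sensing changed unequally. In a list of 21 genes of Toll-like receptor signalling, 19 were measured, 3 rose and 1 fell, or 21.1% beside 7.5% of all genes. The median log2 fold change of the list was −0.01, as over all genes. This list and those below were chosen with earlier results of these data known, so their shares called test nothing. Irak2, a kinase gene of the receptor complex, read 7.34 to 7.67 in wild type and 8.35 to 8.67 in the knockout-labelled arrays, a 2.05-fold difference (1.04 log2, SE 0.0877, limma adjusted p = 0.000156). Lbp, whose secreted protein passes lipopolysaccharide to CD14, read 9.90 to 10.18 and 10.81 to 11.19, a 1.95-fold difference (0.96, SE 0.0986, limma adjusted p = 0.000427). Irak3, an inhibitor of this signalling, rose by 0.27 (limma adjusted p = 0.0111), a call lost with only knockout-labelled arrays 1 and 2 (0.29, limma adjusted p = 0.0528). Ikbkb, a kinase gene of the NF-kB pathway, fell by 0.23 (limma adjusted p = 0.0293), a call that was lost when any 1 of 6 arrays was left out (each wild-type array and knockout-labelled arrays 3 and 4), with median centring and with only knockout-labelled arrays 1 and 2 (limma adjusted p = 0.0511 and 0.183). The remaining co-receptor gene, Ly96, read 7.90, 7.86, 7.38 and 7.86 against 8.18, 8.07, 8.15 and 7.89 and did not pass (0.32, limma adjusted p = 0.126). Along the chain from Lbp to Cd14 to Tlr4, 1 gene thus rose, 1 fell and 1 did not pass.

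Of 17 inflammasome and cytokine receptor genes 15 were measured, and 1 rose and 1 fell, or 13.3% beside 7.5% of all genes. Ptges, whose enzyme makes prostaglandin E from the product of COX-2, read 8.49, 8.02, 8.29 and 8.20 in wild type and 8.80, 8.83, 9.63 and 9.47 in the knockout-labelled arrays. It rose 1.91-fold (0.93, SE 0.184, limma adjusted p = 0.0129), and arrays 3 and 4 lay above arrays 1 and 2. Il1rap, the shared receptor chain of the interleukin-1 family, fell by 0.42 (SE 0.0759, limma adjusted p = 0.00846), a call lost with only knockout-labelled arrays 3 and 4 (limma adjusted p = 0.0521). None of the other 13 passed.

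**Figure D5:**
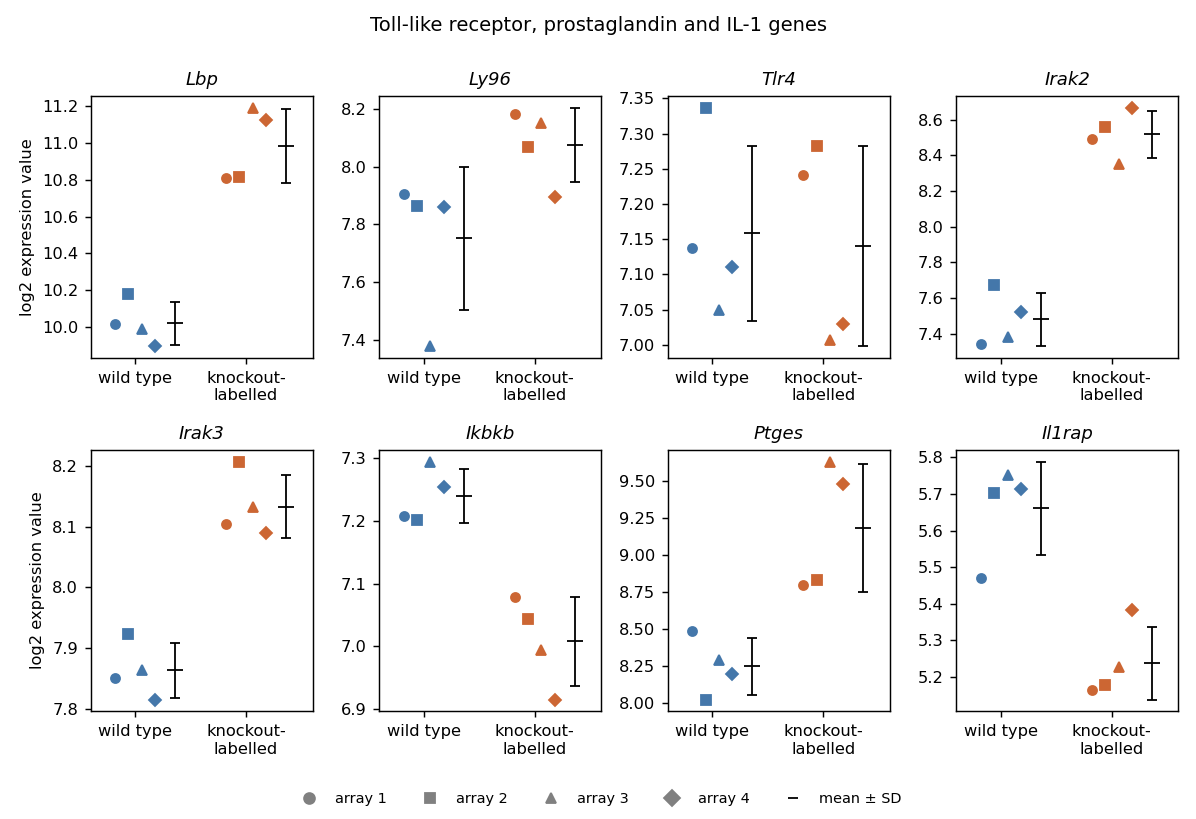
Log2 expression values of 8 genes of Toll-like receptor, prostaglandin and interleukin-1 signalling in each array, with the symbol marking the array number and the bar the mean ± SD (n = 4); each panel has its own vertical axis. The groups are apart for Lbp, Irak2, Irak3, Ikbkb, Ptges and Il1rap and overlap for Ly96 and Tlr4.

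In other lists of macrophage function, genes passed in both directions, beside 7.5% of all genes in either direction. Of 24 genes of lysosomes and lipid handling 23 were measured, and 2 rose and 2 fell (17.4%). The sterol exporter gene Abcg1 rose by 0.62 and its relative Abca1 fell by 0.42 (limma adjusted p = 0.00234 and 0.00186). Acp5, a phosphatase gene of macrophages and osteoclasts, fell by 0.52 (limma adjusted p = 0.00805), a call lost with only knockout-labelled arrays 1 and 2 (limma adjusted p = 0.0868). The cathepsin gene Ctsz rose by 0.24 (limma adjusted p = 0.0454), a call lost in every fit that left out 1 array. It was also lost with either pair of knockout-labelled arrays. The same held with all rows tested and with array weights (limma adjusted p = 0.0505 and 0.0559). Of 14 genes of class II loading and co-stimulation 11 were measured, and the cathepsin gene Ctsl rose by 0.63 (9.09% of the list, limma adjusted p = 0.000434). Of 13 genes of early complement 10 were measured, and C2 fell by 0.85 while Cfb, its counterpart in the alternative pathway, rose by 0.50 (20% of the list, limma adjusted p = 0.000437 and 0.00565). Of 9 myeloid transcription factor genes 8 were measured, and Maf fell by 0.31 (12.5% of the list, limma adjusted p = 0.00541). In the list of Fc receptor and DAP12 signalling genes 0 of 12 measured passed, with 0 at an unadjusted p under 0.05, and the smallest p was that of Fcgr2b (0.13, limma adjusted p = 0.391).

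No marker of other leukocytes passed in limma. The counts were 0 of 14 measured T and NK cell genes (1 at an unadjusted p under 0.05), 0 of 7 B cell genes (0), 0 of 9 neutrophil genes (2), 0 of 9 dendritic cell genes (0) and 0 of 9 mast cell and eosinophil genes (1). The genes with the smallest p in each list were Cd5 (−0.17), Ms4a1 (−0.23), S100a8 (0.24), Cd209a (−0.16) and Prg2 (0.16), with limma adjusted p of 0.0659 to 0.567. By the limit used for the identity genes, 6 of 14 T and NK cell and 4 of 7 B cell genes were dim. So were 7 of 9 neutrophil, 3 of 9 dendritic cell and 4 of 9 mast cell and eosinophil genes. Such rows may read little but background, so a missing call there says little about the gene.

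Among markers of stromal cells and adipocytes 6 genes passed, all higher. These values stand beside Cd14, Lgals3 and Ptgs2, which such cells can express as well. Of 8 measured progenitor genes, Mfap5 (0.84) and Pi16 (0.40) rose, or 25%, and of 8 endothelial genes Cldn5 (0.99) and Pecam1 (0.20), also 25%, beside 7.5% of all genes. Of 9 adipocyte genes Lep (0.75) rose, and of 6 mesothelial genes Msln (0.60), with limma adjusted p of 0.000791 to 0.0439 over the 6. The other 5 mesothelial genes had log2 fold changes below 0 that did not pass (limma adjusted p of 0.0568 or more), and the median of the list was −0.19. An unadjusted limma p under 0.05 was reached by 5 of the 6 mesothelial and 4 of the 8 progenitor genes. Among the 8 endothelial and the 9 adipocyte genes, 3 each reached it. Medians of the progenitor, endothelial and adipocyte lists were 0.21, 0.15 and −0.07. The call of Pi16 was lost in 5 of the 8 fits that left out 1 array, and that of Pecam1 in 7. Pecam1 also lost its call with quantile normalization (limma adjusted p = 0.0712). With only knockout-labelled arrays 1 and 2, Lep, Pi16 and Pecam1 did not pass (limma adjusted p = 0.0725, 0.244 and 0.25). As log2 of the summed linear values of a list, progenitor genes ranged from 12.71 to 12.95 in wild type and 12.79 to 12.89 in the knockout-labelled arrays. Endothelial genes ranged from 11.56 to 11.76 and 11.78 to 11.99, mesothelial genes from 11.23 to 11.42 and 11.14 to 11.38, and adipocyte genes from 15.13 to 15.25 and 15.19 to 15.25. Averaged over the 8 progenitor genes on the log2 scale, the difference from the wild-type mean was −0.26 to 0.16 in wild type and 0.19 to 0.36 in the knockout-labelled arrays. Of the sums, the endothelial ones were apart, and the part of any of these cells in the 3 changes was not tested. The same sum over the 22 identity genes ranged from 12.07 to 12.58 in wild type and 12.39 to 12.70 in the knockout-labelled arrays.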

How the data were processed

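Total RNA of 4 wild-type and 4 knockout-labelled samples was measured on whole-transcript Affymetrix arrays, per the labels' protocols. Each deposited value is the log2 expression of 1 array row in 1 sample. The authors used affy, per the submitters' processing notes, while the normalization is not given in the sources used here. The table has 23346 rows, of which 1183 carry several symbols and 1415 none. The remaining 20748 rows (19310 genes, brightest row each) were tested with limma 3.58.1 (R 4.3.3) by lmFit and eBayes, with 2 groups, no covariate and Benjamini-Hochberg adjustment. In simulated data, 83% of rows changed by 0.5 log2 and 99% of those changed by 1 log2 were called. Of the rows called there, 6.19% were unchanged ones. The simulated noise was independent between rows, unlike the shared array pattern of the members. Arrays give no counts, so their number, 4 a group, limits the precision. The members and all gene lists were chosen with earlier results of these data known. Values per array are given for members called or with groups that do not overlap, and in each group for the 2 smallest p and the brightest row. From every other list each called gene is named, or else that with the smallest p. Same-numbered arrays did not deviate together over all rows (correlations −0.0674 to 0.134), and the labels do not say that the numbers pair samples. These correlations cannot exclude a pairing, so a replicate block was fitted as an alternative. Promoters are RefSeq sequences of GRCm38.p6, matched by symbol for 29 of 43 genes. Alternatives were quantile normalization, median centring, a filter on dim rows, all rows, trend and robust eBayes, array weights, a replicate block, the mean of a gene's rows, each array left out, either pair of knockout-labelled arrays, and other thresholds.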

Additional observations from a re-analysis of the deposited data

Results flagged for a closer look

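In 8 of the 124 groups of 4 arrays examined (62 genes in 2 groups), 1 array stood far from the other 3 by Dixon's criterion. Chance alone gives about 1 in 20. Knockout-labelled array 2 was the high one for the phosphatidylserine receptor gene Timd4 (6.36, others 5.94 to 6.00), for the invariant chain gene Cd74 (10.59, others 10.16 to 10.23) and for the sterol exporter gene Abca1 (9.53, others all 9.43). Wild-type array 3 was the low one for the lectin gene Clec4d (3.96, others 4.49 to 4.55) and for the adaptor gene Tyrobp (7.62, others 8.19 to 8.31). Timd4, Clec4d and Tyrobp are themselves identity genes. Wild-type array 1 was low for Trem2 (6.43, others 6.56 to 6.57), and wild-type array 4 was low for Nlrp3 (3.58, others 3.66 to 3.67). Knockout-labelled array 1 was high for the phosphatase gene Acp5 (10.18, others 9.84 to 9.87) and still below every wild-type array.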

How the results depend on the processing

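Of 747 member values recomputed under the alternative settings, 744 kept the direction and side of the threshold they had, or moved by less than the spread between arrays. The exceptions were Cd14 and Lgals3 with knockout-labelled arrays 1 and 2 only, and Lgals3 without knockout-labelled array 4, all of which lost the call. With knockout-labelled arrays 1 and 2 only, 0 members were called lower and 1 higher (Ptgs2). With arrays 3 and 4 only, Cd14, Lgals3 and Ptgs2 were called, as with all arrays. A 1.5-fold minimum left 0 called lower and 0 higher. With each array left out in turn, 1 member was called lower each time and 1 to 2 higher. The fit with the replicate number as a block called 1 lower and 2 higher, the same 3 genes, while of the other genes named Ikbkb, Ctsz, Pi16 and Pecam1 lost their calls under it (limma adjusted p = 0.0843, 0.104, 0.0664 and 0.0925). The sign of 23 members that were not called changed in some setting, and of 6 of them in a setting other than leaving out arrays. The median of sensing and cytokine genes, −0.01, was 0.01 with median centring. A filter on the dimmest rows kept 33 of the 42 members. With 4 arrays a group, some differences went uncalled where arrays spread widely (Ly96 0.32, Atp6v0d2 −0.38), and for dim cytokine genes no detection limit was used here.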
